A study of Drosophila melanogaster with 3 samples.

Results

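The genes described here are u-shaped (ush) and the 5 GATA factor genes of Drosophila melanogaster, pannier (pnr), serpent (srp), grain (grn), GATAd and GATAe. They were taken by symbol from the Ensembl annotation of the release 6 genome (dm6), each with 10 kb on either side, and make up 6 of the 13968 protein-coding genes on the 7 chromosomes used. Their loci held 24 of the 6127 summits in the authors' thresholded list of su(Hw) peaks. The genes were chosen by these same peak lists, that is by the strong peak in ush (the third of the whole list by signal) and by its many summits, so the counts and ranks below are a description and none was tested.

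The data were chromatin immunoprecipitation sequencing of su(Hw) in 3 biological replicates of a single group, so no condition was compared with another. The embryos came from a transgenic line, strain SuHw-GFP, that stably expresses su(Hw) with GFP at its C terminus. They were 0 to 24 hours old and of both sexes, and were used whole, so each list pools all cell types and all embryonic stages, and a peak cannot be placed in the cells that express a given gene. The pulldown used an antibody against GFP, while su(Hw) itself is named as the antibody's target in another field of the labels. Chromatin was sonicated to a size range of 200 to 800 bp. There were 30000 peaks, many of them weak, in the pooled list and in that of each replicate. The number of reads behind them is unknown.

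The protein su(Hw) is a zinc finger protein that binds DNA directly and is best known for the insulator of the gypsy retrotransposon, where it recruits partner proteins and can separate an enhancer from a promoter. GATA factors are zinc finger proteins that bind the letters GATA in regulatory DNA. Ush is the fly's Friend of GATA protein, which does not act by binding DNA on its own but attaches to a GATA factor and changes its activity, with Pnr in the dorsal ectoderm, heart and bristle fields and with Srp in blood cells.

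Of the 6 genes, 5 had a thresholded summit in the gene or within 10 kb, where 72.8% of all protein-coding genes had one. Grn had none. Within 1 kb 4 of the 6 had one, beside 37.1% of all protein-coding genes, and within 20 kb all 6 did, beside 85.2%. In the gene body, 3 of the 6 had a summit (ush, pnr and GATAd), where 14.3% of all protein-coding genes did. That share covers genes of all lengths, and body summits were more common among genes as long as these 6. Among genes within a factor of 2 in length, those without a body summit made up 39.6% for ush, 59.0% for pnr and 57.2% for srp. The shares were 46.3% for grn, 82.2% for GATAd and 68.8% for GATAe, so the 14.3% is not a comparison at like length. The 24 summits were uneven between genes: 15 lay in the ush locus, 5 at pnr, 3 at srp, 1 at GATAe and 1 at GATAd, with 1 summit counted both at srp and at GATAe, which are neighbours. They fell into 11 introns, 6 promoter windows (from 1000 bp before a protein-coding transcript's start to 100 bp after it), 4 non-coding exon parts outside promoter windows and 3 intergenic positions. None lay in a coding exon. The promoter share of 25.0% (exact binomial 95% interval 9.77 to 46.7) stood beside 50.9% for all thresholded summits. Among the strongest 1000 peaks of the list were 9 of the 24 (37.5%, interval 18.8 to 59.4), where 16.3% of all thresholded peaks are by construction. The intervals cover counting error only, and summits within a locus are not independent of each other.

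Sequences are shown for the 7 strongest summits of the loci (ranks 3 to 611), for the only thresholded summit of GATAd, and for the 1 weaker summit whose best match had no more than 1 mismatch, a choice made after the values were seen. The 12-letter su(Hw) consensus, which contains the core TGCATA, was searched on both strands within 100 bp of each summit. Capitals mark its best match, and the letters are those of the plus strand of dm6, from 5′ to 3′. At the 3 summits in untranslated exons, of ush, cbt and pnr, only 30 bases around the match are given, and elsewhere the summit with 100 bases on either side.

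ush, rank 3, 2 mismatches on the minus strand, chr2L:490233-490262: aaagcctaaAAGTATGCCTTGcaagcggtg

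srp and GATAe, rank 45, 1 mismatch on the minus strand, chr3R:16004140-16004340: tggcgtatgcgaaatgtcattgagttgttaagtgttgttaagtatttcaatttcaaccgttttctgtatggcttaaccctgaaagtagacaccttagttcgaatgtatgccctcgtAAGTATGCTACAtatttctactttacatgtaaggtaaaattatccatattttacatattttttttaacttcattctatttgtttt

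pnr 3′ UTR, rank 170, 1 mismatch on the plus strand, chr3R:16041110-16041139: gataaaaatCGTTGCCTACTTtcaagcgca

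cbt exon within ush, rank 223, 2 mismatches on the minus strand, chr2L:478771-478800: gcatgcaagGAAAATGCAGCCacaccacca

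ush intron, rank 257, 2 mismatches on the minus strand, chr2L:480990-481190: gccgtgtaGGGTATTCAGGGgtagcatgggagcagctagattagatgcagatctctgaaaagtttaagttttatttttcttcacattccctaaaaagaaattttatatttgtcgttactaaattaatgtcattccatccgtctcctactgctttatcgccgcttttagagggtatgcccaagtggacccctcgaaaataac

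upstream of srp, rank 528, 2 mismatches on the plus strand, chr3R:15983452-15983652: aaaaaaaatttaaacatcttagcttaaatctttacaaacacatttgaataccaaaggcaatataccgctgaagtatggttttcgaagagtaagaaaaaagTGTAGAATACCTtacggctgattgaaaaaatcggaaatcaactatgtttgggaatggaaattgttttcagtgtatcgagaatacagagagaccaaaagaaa

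between pnr and Jhbp4, rank 611, 1 mismatch on the minus strand, chr3R:16043075-16043275: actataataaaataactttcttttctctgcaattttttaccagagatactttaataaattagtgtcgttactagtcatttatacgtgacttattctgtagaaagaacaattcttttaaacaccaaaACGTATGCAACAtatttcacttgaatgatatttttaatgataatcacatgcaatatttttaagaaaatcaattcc

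GATAd intron, rank 2756, 3 mismatches on the minus strand, chr2L:10335054-10335254: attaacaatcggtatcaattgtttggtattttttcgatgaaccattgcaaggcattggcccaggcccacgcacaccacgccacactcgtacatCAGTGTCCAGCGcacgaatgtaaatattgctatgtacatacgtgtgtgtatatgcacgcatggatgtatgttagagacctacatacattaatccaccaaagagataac

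ush intron, rank 2583, 1 mismatch on the plus strand, chr2L:481809-482009: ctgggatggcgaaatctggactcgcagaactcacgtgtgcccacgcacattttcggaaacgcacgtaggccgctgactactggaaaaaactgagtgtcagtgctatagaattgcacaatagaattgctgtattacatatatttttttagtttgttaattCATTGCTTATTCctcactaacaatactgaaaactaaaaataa

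No summit of the 6 loci had an exact match, where 7.05% of all thresholded summits had one. A match with up to 1 mismatch lay at 4 of the 24 (16.7%, interval 4.74 to 37.4), where 21.6% of all thresholded summits and 5.27% of control windows 2 kb away had one. These 4 were the srp and GATAe summit at rank 45, the pnr summits at ranks 170 and 611, and the ush intron summit at rank 2583. The middles of their matches lay 21.5, 12.5, 31.5 and 64.5 bp from the summit, in that order. For the match marked at rank 257 the distance was 86.5 bp. With 50 bp on either side of the summit 3 had such a match, and with 250 bp 6 did. With up to 2 mismatches the share was 62.5%, beside 58.3% of all thresholded summits and 41.7% of control windows, so a match of that kind separates peaks from controls little.

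A weight matrix of 20 bases, built from the 432 exact sites at thresholded summits outside these loci, graded the matches more finely. Its score is the base-2 logarithm of the odds of a site over background, and 3.18 was the level that 5% of control windows exceeded. The matrix was added after the data were seen. Of the 24 summits 7 scored above that level (29.2%, interval 12.6 to 51.1), where 27.7% of all thresholded summits did. The highest scores were 17.09 at the Jhbp4 promoter summit next to pnr, 15.23 at the pnr 3′ UTR summit and 11.95 at the srp and GATAe summit. The strongest ush summit scored 7.39, higher than 78.7% of all thresholded summits. The cbt exon summit scored 10.09. The ush intron summit at rank 257 scored -6.77, higher than only 33.9% of all thresholded summits. Of the 100 strongest peaks of the whole list, 68 had the consensus with up to 1 mismatch and 84 scored above the control level. Rank 3 at ush thus belonged with the 84 by its matrix score and not with the 68 by its letters.

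**Figure D1:**
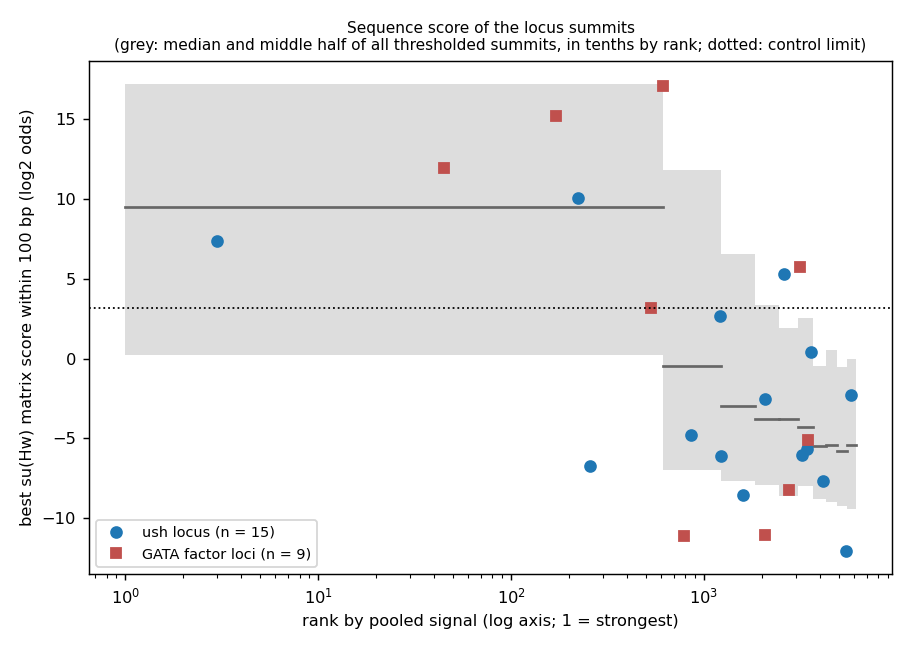
Best su(Hw) matrix score (log2 odds, vertical axis) within 100 bp of each of the 24 summits against pooled rank (log axis, 1 is strongest). Blue circles are the 15 summits of the ush locus and red squares the 9 of the GATA factor loci; grey lines and boxes give the median and the middle 50% of all thresholded summits in 10 bins by rank, and the dotted line is the control level of 3.18. Scores spread from -12.06 to 17.09, and 3 of the 4 highest belong to the GATA factor loci.

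Across the whole list the score fell with rank: the median was 9.50 for ranks 1 to 613 and -0.48 for ranks 614 to 1226. At the same ranks the loci held summits on both sides of these medians. The core TGCATA was at 4 of 24 summits (16.7%), beside 23.5% of all thresholded summits. GATAA, a form of the sequence that GATA factors bind, was at 13 of 24 (54.2%, interval 32.8 to 74.4), beside 39.1% of all thresholded summits and 33.6% of control windows. By locus, GATAA was at 6 of the 15 ush summits (40.0%) and 7 of the 9 in the GATA factor loci (77.8%, interval 40.0 to 97.2). Several of the 9 share a peak interval with another summit, and the interval counts them as if they were separate. CGATA, which may overlap GATAA and is part of the sequence known for the insulator protein BEAF-32, was at 3 of 24 (12.5%), beside 29.3%. GAGAGAG, bound by GAGA factor, was at 1 of 24 (4.17%), beside 4.16%. A match describes the letters in the window and does not show that the factor was bound.

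Ush (FBgn0003963) lies on the plus strand at chr2L:476220-540560, spans 64341 bp and has 5 annotated transcripts with 4 different starts. Its body held 12 thresholded summits and its locus 15, out of 46 peaks of the pooled list in the locus. Only 4 protein-coding genes, or 0.0286%, had 12 or more in the body, ush among them. Of the 571 genes between 0.5 and 2 times as long as ush, the median gene had 1 body summit, 226 (39.6%) had none and the highest count was 13. Per 100 kb, the ush body held 18.7 thresholded summits and 52.8 pooled peaks, where the 5 large chromosome arms as a whole held 4.60 and 22.5. The arms include sequence outside genes, and the ush body includes the nested gene cbt. By the same measure GATAd held 18.3 thresholded summits, from 1 summit, and pnr 12.7, from 2, while srp, grn and GATAe held 0.0.

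The summits were crowded at the 5′ end of the gene. The first 15 kb after the outermost start held 8 of the 12 body summits, from 2570 to 14053 bp. A gap of 20350 bp followed, then 4 weak summits from 34403 to 45922 bp, and the last 18418 bp of the gene held none. The strongest summit carried 57.3% of the summed pooled signal of the 12.

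**Figure D2:**
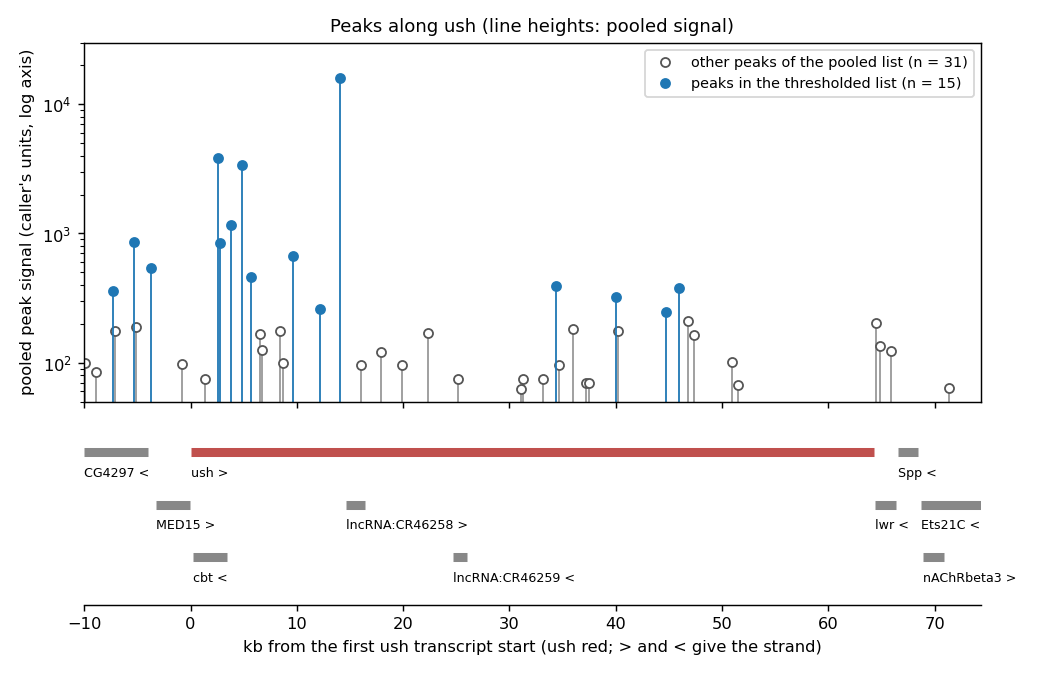
Peaks along the ush locus by pooled signal (caller's units, log axis) against distance in kb from the first ush start. Blue filled points are the 15 thresholded summits and open points the 31 other peaks of the pooled list; bars below show ush in red and other genes in grey with their strand. The 4 tallest lines, from 1160.3 to 16044.6, sit in the first 15 kb of the gene, and the tallest is the summit 14.1 kb from the start; the next, at 857.5, lies upstream of ush.

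The strongest summit lay at position 490273 with a pooled signal of 16044.6, in the caller's own units, or 77.1% of the strongest signal of the list. Its signal was 4230.9 in replicate 1, 4772.2 in replicate 2 and 7164.8 in replicate 3, and it ranked 2, 3 and 4 in their lists. The replicate summits lay 11, 5 and 0 bp from the pooled one. Signals differ in scale between lists, so only the ranks are compared, and all 3 placed this summit among their strongest 4. The summit was in an annotated 5′ UTR of ush. It lay 562 bp upstream of an internal start at position 490835, which is shared by the ush transcript FBtr0310027 and the long non-coding RNA lncRNA:CR46258. The summit was therefore in a ush promoter window while lying 14053 bp inside the gene.

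The next strong summits of the ush body lay in or near a nested gene. Cabut (cbt), which encodes a zinc finger transcription factor needed for dorsal closure, lies antisense inside the 5′ part of ush at chr2L:476446-479688. The summit at 478790 had a pooled signal of 3818.4 and ranked 237, 233 and 204 in replicates 1, 2 and 3. It lay in the cbt 5′ UTR, 898 bp downstream of the cbt start, and a second summit of the same peak at 478994 (rank 1227) lay 694 bp downstream of it. A summit in the cbt promoter, 379 bp upstream of the start, had a signal of 1160.3 and ranked 898, 861 and 866. Its ranks were the closest to each other of the 24. At 481090, 1402 bp upstream of cbt and in a ush intron, the signal was 3415.9 and the ranks 209, 310 and 254. All 4 lay inside ush and no more than 1402 bp from the cbt start, and a peak list cannot assign them to either gene.

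The other body summits were weaker and all intronic. The summit at 481909, printed above, ranked 2583 and those at 485861 and 488421 ranked 1600 and 5411. The last of these had lncRNA:CR46258 as its nearest start, as did the summit at 485861. In the distal part, the summit at 510623 ranked 3230, with lncRNA:CR46259 as its nearest start, and those at 516241, 520903 and 522142 ranked 4121, 5785 and 3403. The nearest start to these last 3 was the start of the short ush transcripts at 523466, and the closest of them, at 522142, lay 1324 bp upstream of it.

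Upstream of ush, 3 summits lay in or beside CG4297. Those at 468914 (rank 3591) and 470870 (rank 1215) were in its intron. The summit at 472478 (rank 2072) was in the promoter windows of both CG4297, 278 bp upstream of its start, and MED15, which encodes a subunit of the Mediator complex and is transcribed the other way. No thresholded summit lay in the 10 kb downstream of ush, which holds lwr, the gene of the SUMO-conjugating enzyme, and Ets21C.

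Pnr, srp and GATAe lie in a row on the plus strand of 3R, over 55.6 kb, with 5019 bp between srp and GATAe and 6945 bp between GATAe and pnr. Together their loci held 8 thresholded summits, none of them in the body of srp or GATAe and 2 in that of pnr, near its 3′ end. From the summit upstream of srp to the summit beyond its end 20.5 kb had no thresholded summit, and from there to the pnr 3′ UTR a further 36.9 kb had none. An empty body is common at the lengths of srp and GATAe: 57.2% of the 1611 genes between 0.5 and 2 times as long as srp, and 68.8% of the 2459 such genes for GATAe, had none in the body.

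**Figure D3:**
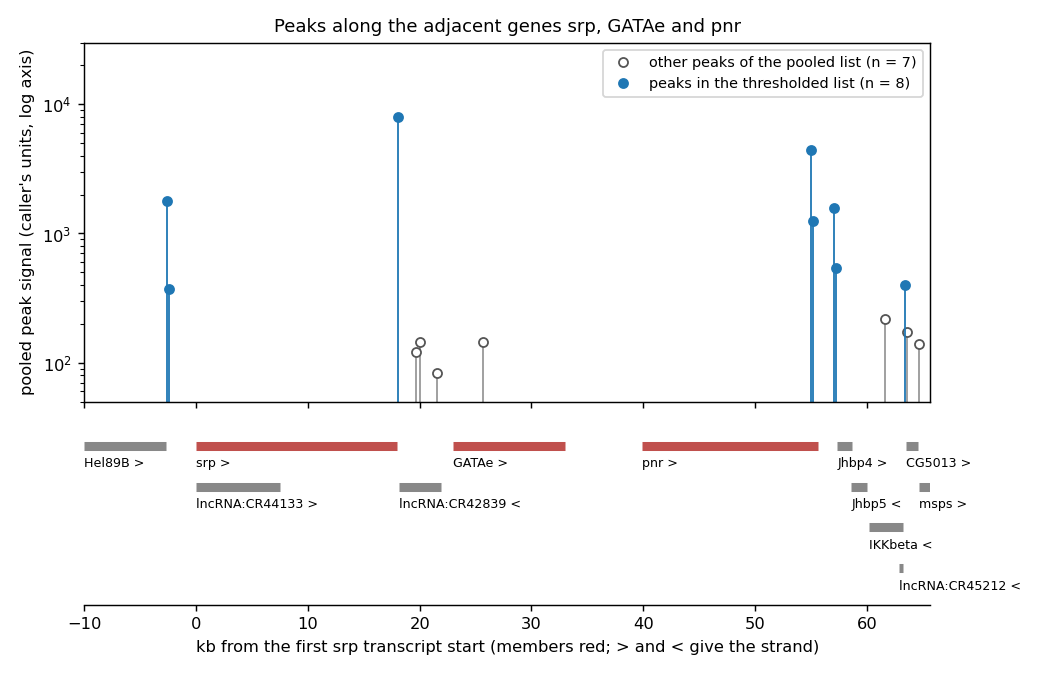
Peaks along the adjacent genes srp, GATAe and pnr by pooled signal (caller's units, log axis) against distance in kb from the first srp start. Blue filled points are the 8 thresholded summits and open points the 7 other pooled peaks; the 3 GATA factor genes are red. The tall lines stand before srp, between srp and GATAe, and at and beyond the 3′ end of pnr, with 36.9 kb free of them in between.

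Srp (FBgn0003507, chr3R:15986152-16004085, 17934 bp), which directs the formation of blood cells, fat body and endoderm, had 3 summits in its locus and none in its body. The strongest of the whole row, at 16004240, had a pooled signal of 7971.0 and replicate signals of 2044.2, 2408.2 and 3577.7. It ranked 41, 43 and 51, so all 3 replicates placed it among their strongest 51 peaks. The position was intergenic, 155 bp past the srp end and 81 bp from the 3′ end of lncRNA:CR42839, which runs towards srp from the other strand. It thus lay between convergent 3′ ends, and 4865 bp before the GATAe start.

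The other pair lay upstream of srp and shared 1 peak interval. The summit at 15983552 had a signal of 1799.0, ranked 582, 479 and 538, and lay 2600 bp upstream of the outermost srp start and 101 bp past the end of Hel89B, a helicase gene. The second, at 15983752, ranked 8530, 3511 and 2866, the widest spread of the 24. Replicate 1 counted as top-ranked there only because its summit at 15983552 lies within the matching distance of 200 bp.

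GATAe (FBgn0038391, chr3R:16009105-16019133, 10029 bp), which acts in the endoderm and the gut, had the summit at 16004240 as its only thresholded one. Its body held 1 unthresholded pooled peak.

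Pnr (FBgn0003117, chr3R:16026079-16041796, 15718 bp), which patterns the dorsal ectoderm and the heart and activates the proneural genes of the dorsal thorax, had 2 summits in its body and 3 beyond its end. The summit at 16041112 had a signal of 4452.8, replicate signals of 1148.2, 1351.4 and 1984.8, and ranked 163, 167 and 179. It lay in the 3′ UTR of the longer pnr transcripts, 684 bp before their end and 197 bp past the end of the shorter ones at position 16040915. The second, at 16041323, ranked 868, 807 and 647. It lay in the same peak interval and inside a fragment of 102 bp that the annotation assigns to a BS transposable element, at chr3R:16041234-16041335. How reads that could come from other copies of the element were handled is not given in the sources used here.

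Beyond pnr, the summits at 16043175 and 16043375 shared a peak interval in the promoter window of Jhbp4, a gene named for juvenile hormone binding proteins, 323 and 123 bp upstream of its start. The first had a signal of 1576.2 and ranked 648, 580 and 618. The second ranked 4624, 4904 and 1923, so replicate 3 placed it higher than the other 2 did. The summit at 16049536 (rank 3130) was in the promoter windows of IKKbeta, a kinase gene of the Imd immune pathway, 115 bp upstream of its start, and of CG5013. All 5 lay at or beyond the pnr 3′ end, and none was near any of the 3 pnr starts.

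Within 200 bp of the end of a protein-coding transcript lay 3 of the 24 summits (12.5%), beside 8.86% of all thresholded summits. These were the summits past srp, past Hel89B and past the short pnr transcripts. Their ranks were 45, 528 and 170.

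GATAd (FBgn0032223, chr2L:10333734-10339185, 5452 bp), a GATA-type zinc finger gene, had 1 thresholded summit at 10335154, in an intron 1240 bp downstream of its nearest start. Its pooled signal was 437.3 and its ranks 3716, 3278 and 2333. The locus also held 11 unthresholded pooled peaks, of which 5 had a summit within 200 bp in all 3 replicates. The strongest of these 11, at 10339332, ranked 6733 and lay 147 bp past the gene end. It was also in the promoter window of the next gene, SamDC, which starts at 10339457 on the plus strand.

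Grn (FBgn0001138, chr3R:8147368-8181444, minus strand, 34077 bp), which acts in motor axon guidance and in shaping the posterior spiracles, had neither a thresholded summit nor any peak of the pooled list in its 54.1 kb locus. Of all protein-coding genes, 9.77% had no pooled peak in the gene or within 10 kb. Among the 1037 genes between 0.5 and 2 times as long as grn, 57 (5.50%) had none, 213 (20.5%) had no thresholded summit in the locus and the median gene had 14 pooled peaks. Replicate 2 alone listed a peak there, at position 8180578 in an intron 866 bp downstream of the start, with a signal of 37.2 and rank 13641. Replicates 1 and 3 listed none. The depth is unknown, and binding too weak to enter these lists was not detectable.

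Most of the summits recurred. A replicate peak was counted as top-ranked when its rank was 6127 or better, and such a peak lay within 200 bp in all 3 replicates for 22 of the 24 summits (91.7%, interval 73.0 to 99.0), beside 69.3% of all thresholded summits. The 24 also held more of the strongest 1000 peaks (37.5%, beside 16.3% of all thresholded peaks), so the 2 shares do not compare peaks of like strength. Since these replicates also gave rise to the thresholded list, the shares are not independent evidence. In the ush locus 13 of 15 summits had such peaks (86.7%, interval 59.5 to 98.3), and in the GATA factor loci 9 of 9 (interval 66.4 to 100). Summits that share a peak interval were counted separately in these intervals. The 9 include the srp summit at 15983752, whose own rank in replicate 1 was 8530. It counted through the replicate 1 peak of the neighbouring summit. The 2 ush summits without full support, at 488421 and 520903, had a top-ranked peak in 1 replicate and were the 2 weakest of the 24. The ratio of the highest to the lowest replicate rank had a median of 1.52 over the 24 summits and 1.51 over the 5814 thresholded summits with a rank in all 3 lists.

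**Figure D4:**
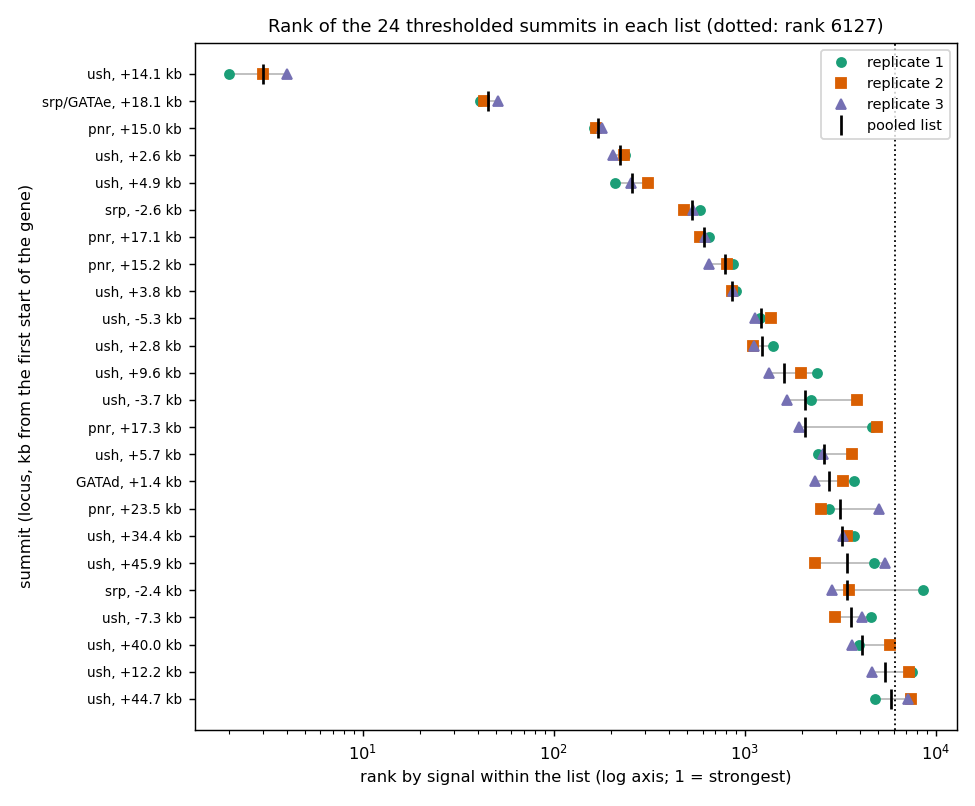
Rank of the 24 thresholded summits (rows, named by locus and distance in kb from the first start of the gene) in each replicate list (coloured symbols) and in the pooled list (black bar), on a log axis where 1 is strongest. The dotted line is rank 6127. The ratio of the highest to the lowest replicate rank runs from 1.04 to 2.98 over the 24 summits, and only 3 summits have a replicate beyond the dotted line.

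The values at the edge of the list are close to each other. The weakest 2 thresholded summits of the loci had signals of 247.0 (rank 5785) and 260.9 (rank 5411). Outside the list were the peak between GATAd and SamDC with 219.5 (rank 6733), a peak 6011 bp past pnr with 219.2 (rank 6746) and a ush body peak at 523009 with 210.8 (rank 7046). Each of these 3 had a summit in all 3 replicates. In all, the ush locus held 31 unthresholded pooled peaks, 16 of them with a summit in all 3 replicates, and the pnr locus 3, all with a summit in all 3. The srp and GATAe loci overlap and held the same 4, of which 2 had a summit in all 3.

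Ush was set beside all 1999 protein-coding genes with a thresholded summit in the body by gene length, number of body summits and rank of the strongest one, each on a log2 scale divided by its SD. The 5 nearest genes were Mob2, which encodes a kinase activator of the Mob family, CG33158, tou, RapGAP1 and Eip75B, the gene of an ecdysone-induced nuclear receptor, at distances from 1.70 to 2.33 SD units. Mob2 had 6 body summits with a best rank of 2 over 39477 bp, and Eip75B had 8 with a best rank of 29 over 113744 bp. Each of the 5 had fewer body summits than ush. Because ush was chosen for its strong peak, the rank term favours genes with a top-ranked peak over genes of like length and count. The gene shn, described below, had 11 body summits over 58309 bp but a best rank of 113, and was not among the 5.

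**Figure D5:**
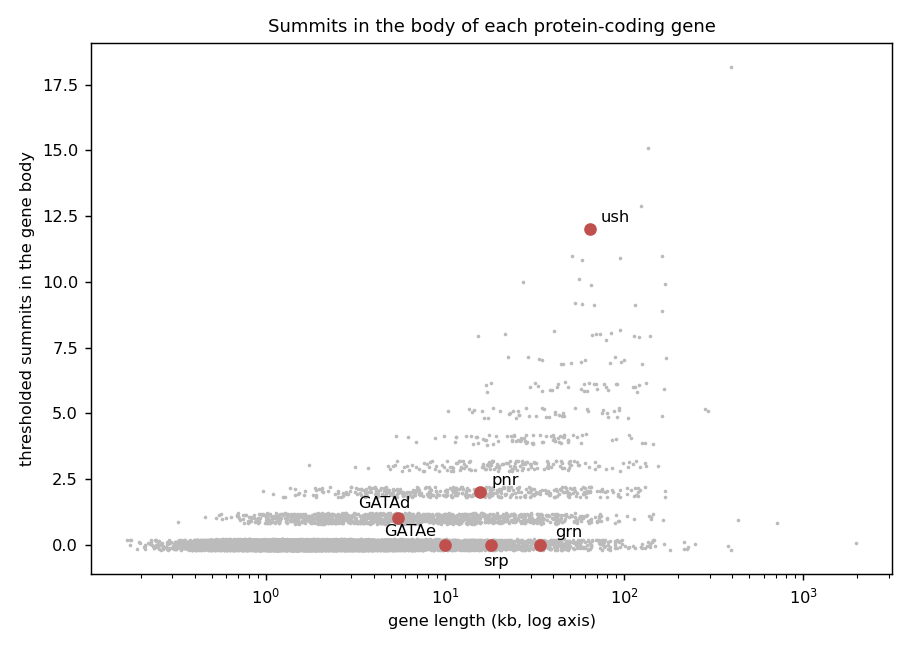
Number of thresholded summits in the body of each of the 13968 protein-coding genes against gene length (kb, log axis), with the 6 genes described in red; grey points are spread slightly up and down so that they can be told apart. Ush stands at 12 summits with few genes of its length near it, and pnr, GATAd, srp, GATAe and grn lie among many genes with 2, 1 or 0.

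Examined next, in 6 groups, were 49 genes listed as partners or context of ush and the GATA factors. Of these, 32 (65.3%) had a thresholded summit in the gene or within 10 kb, beside 72.8% of all protein-coding genes, and 21 (42.9%) had one in the gene or within 1 kb, beside 37.1%. By group and within 10 kb, these were all 6 genes of the NuRD chromatin complex, 6 of 7 in the partner group and 4 of 5 endoderm and fat body genes. The rest were 8 of 13 dorsal ectoderm genes, 7 of 12 blood genes and 1 of 6 heart genes. Within 1 kb the counts were 4 of 6 for NuRD, 4 of 7 for partners and 2 of 5 for endoderm and fat body. They were 6 of 13 for dorsal ectoderm, 4 of 12 for blood and 1 of 6 for heart. The partner group also holds the proneural gene ac. Of the heart genes, tin, bap, mid, H15 and svp had none, and Hand had a summit at rank 4642.

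The strongest of these summits was at rank 93 near achaete (ac), a proneural gene that Pnr activates, but it lay 8413 bp outside the gene in an intron of CG32816. Schnurri (shn), which encodes a zinc finger protein of the Dpp pathway, had its strongest summit at rank 113 in its own promoter and 11 in its body. Beadex (Bx), whose LIM-only protein binds Chip, had rank 236 in an intron and 6 in its body. The summit at rank 326 next to the blood cell gene Hml lay 130 bp outside it, in an exon of CG8745. Those near Caf1-55, a histone-binding subunit of NuRD, and the muscle regulator Mef2 had ranks 474 and 587 and lay 1954 and 1041 bp outside the genes, in promoters of neighbours. Simjang (simj), the p66 subunit of NuRD, had rank 697 in an intron with 5 in its body, and the endoderm gene fork head (fkh) had rank 702 in its promoter. At 4 of these 8 genes (ac, Hml, Caf1-55 and Mef2) the strongest nearby summit thus lay in or at another gene.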

How the data were processed

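The 3 biological replicates of su(Hw)-eGFP chromatin immunoprecipitation form 1 group in the labels. The authors deposited dm6 peak lists per replicate, pooled, and thresholded by the irreproducible discovery rate. The signal of each peak is the authors' caller's value, on an undefined scale, used only for ranks and shares within a list. The −log10 q-value column as deposited could not rank strong peaks, since 4732 of 6127 thresholded peaks shared its highest value. The other columns deposited by the authors gave interval and summit. What caller, aligner and discovery-rate threshold were used, and the depth, is not given in the sources used here. The control experiment and the dm3 lists were not used.

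Summits are 1-based dm6 positions. The 6127 thresholded peaks were the strongest 6127 of the pooled list. Summits matched within 200 bp. A replicate rank is that of the strongest replicate summit within 200 bp that lies nearest to this thresholded summit rather than to another one. Genes came from Ensembl release 115 and letters from the NCBI release 6 genome. The matrix used a pseudocount of 1 and 4 bases on either side of the consensus. Genes named were the 6 members, genes with the nearest start to a locus summit, the 5 most like ush, and the 8 pathway genes with the strongest summit. Neighbours that hold a summit or lie beside one, and heart genes, were named after their values were seen. Members, lists and alternatives were chosen with earlier results of these data known. Alternatives changed the flank, list, merging, matching distance, promoter and motif window, or left out a replicate. Functions were tested on simulated data. Intervals are exact (Clopper-Pearson). Python 3.11.15, numpy 2.4.6, pandas 2.3.3, scipy 1.17.1 and matplotlib 3.10.9 were used.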

Additional observations from a re-analysis of the deposited data

How the results depend on the processing

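With the whole pooled list, the 6 loci held 73 summits in place of 24 and the ush locus 46 in place of 15. With the strongest 3063 thresholded peaks the ush locus held 9. When summits within 500 bp were merged, the 6 loci held 20 and the ush locus 14. All ush summits (100%) had a peak in all 3 replicates when whole replicate lists were used, and 46.7% when the strongest 3063 peaks of each were used, in place of 86.7%. With a flank of 1 kb, 21 of the 49 pathway genes had a summit in place of 32, while the share of all protein-coding genes went from 72.8% to 37.1%. The pathway share was thus below that of all genes at 10 kb (65.3%) and above it at 1 kb (42.9%). For the consensus, 0 summits had an exact match and 7 passed the matrix score, an alternative chosen after seeing the data, in place of 4 with up to 1 mismatch. Leaving out each replicate in turn gave 22 summits in the 6 loci each time, 13 at ush and 5 member genes. It also gave 86.7% support at ush, 4 consensus matches and 6 promoter summits each time, and 29 to 31 pathway genes. Peaks were not called anew, and the thresholded list still came from all 3 replicates. The 22 and 13 are the summits with a top-ranked peak in all 3, and the remaining ones had such a peak in only 1. The identical values were therefore fixed by that support and do not show that the results hold without a replicate. Within 10 kb, 66.0, 66.4 and 65.7% of all protein-coding genes then had a summit without replicates 1, 2 and 3, beside 63.3, 59.2 and 61.2% of the pathway genes. Flanks of 1 and 20 kb gave 16 and 28 summits in the 6 loci, and 4 and 6 of the 6 member genes, where 37.1% and 85.2% of all protein-coding genes had a summit. Over all alternatives, 46 recomputed values were labelled as the same and 8 as moved, by wide limits that are not given here. Those labelled as the same include a change from 24 to 16 summits in the 6 loci and from 4 to 6 consensus matches. They also include the values fixed by replicate support, so the tally does not measure stability. No paired analysis was possible because the samples form 1 group. Read depth is unknown, so an absence of peaks is limited by the length of the lists.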
